A study of Medicago sativa with 86 samples.

Results

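The 80 genes described here are those whose leaf transcript level rose most at 600 ppm CO2 in alfalfa (*Medicago sativa*) plants with effective nitrogen fixation, over and above any response in plants with ineffective fixation. They were ranked among the 12707 genes with a mean of at least 5 CPM (a gene's share of the library's total count, times 1e6), out of 49095 identifiers in the count table. The response of a line to CO2 was the mean log2(CPM + 1) at 600 ppm minus that at 420 ppm, with each nitrate level weighted equally. The score of a gene was the smaller response of the 2 effective lines minus the larger absolute response of the 2 ineffective lines, and the 80 highest scores were kept. The choice therefore rests on the measured CO2 responses, which are given below as a description and without a test. Scores ran to 2.29 at the top. The last gene inside and the first gene outside the 80 both scored 0.847, so the boundary marks no step in the data.

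Messenger RNA of leaves was sequenced in 86 libraries of the cultivars Saranac and Agate, each grown as an ineffective and an effective class of nitrogen fixation. Plants of all groups were inoculated with rhizobium, grown in chambers on a clay and sand substrate under 1 light and temperature regime, and received 6, 10 or 16 mM KNO3 once a week, per the labels. The 4 lines, 3 nitrate levels and the CO2 levels of 600 and 420 ppm gave 24 groups of 3 or 4 libraries, 85 in all, and 1 library with contradictory labels of fixation class entered no comparison. It is not stated what makes a plant ineffective (its genotype or its rhizobium), nor whether a library is 1 plant or a pool, and p-values therefore measure the spread between libraries. CO2 level and growth chamber cannot be told apart. The identifiers are not paired with gene names or sequences in the sources used here, so the genes have no stated function and the leaf label could not be checked against marker genes.

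Legumes house rhizobia in root nodules, where the bacteria reduce dinitrogen to ammonia in exchange for carbon from the leaf. A plant whose nodules are ineffective has to live on the nitrogen of the soil or nutrient solution. Raised CO2 increases the carbon that leaves assimilate, and in many species photosynthetic capacity later declines where nitrogen supply does not keep up.

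Total counts were 13543807 to 25910031 per library with a median of 19895909. In this bulk tissue, a change in the share of a cell type cannot be told apart from a change of RNA level per cell. The 80 genes took between 0.0882% and 1.87% of all counts of a library. Their mean levels ran from 5.28 to 803 CPM with a median of 20.3 CPM, close to the median of 22.6 CPM of the 12707 genes. Of the 80, 11 averaged above 100 CPM and 20 below 10 CPM. A count above 0 was found in every library for 61 of them, and the other 19 had a count of 0 in at least 1 library. Where gene copies are nearly identical, their levels are uncertain, because the counting may have divided or discarded the reads they share. The strand setting of the counting is not given in the sources used here, so overlapping and antisense genes are uncertain too.

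Before any response is read, 3 libraries have to be named. They are labelled ineffective at 420 ppm, and the 80 genes were as high in them as in 600 ppm libraries. The summed level of the 80 genes was 10076 CPM in Agate at 10 mM replicate 1, 9560 CPM in Agate at 16 mM replicate 1 and 9441 CPM in Saranac at 16 mM replicate 4. The next highest of the 20 ineffective libraries at 420 ppm had 5036 CPM. A gene was counted as high in a library when it lay above the midpoint of its effective 600 and 420 ppm means. By that count 52, 65 and 66 of the 80 genes were high in these 3 libraries, in the same order. That count alone does not set the 3 apart. It was 59 in ineffective Agate at 16 mM and 420 ppm replicate 4. In ineffective Agate at 6 mM and 420 ppm replicate 2 it was 44. Both of these libraries were kept in the setting without the 3. A score was built from the other 12627 genes, on which 1 is the effective 600 ppm mean and -1 the effective 420 ppm mean. It was 0.94, 0.39 and 0.67 in the 3 high libraries, in the order given above. Among the other ineffective libraries at 420 ppm the median of that score was -1.02 in Saranac and -1.09 in Agate. Of the 3, the 2 from Agate also had the largest variance around their group means of all 85. It was 1.19 and 1.25, against a median of 0.42. For 25 of the 80 genes the highest level of all libraries lay in 1 of these 3, and for 44 it lay in an effective library at 600 ppm. Of the other 420 ppm libraries, 4 also scored above 0, one of them the library with contradictory class labels, the highest of them effective Agate at 10 mM replicate 3 with 0.42, but the summed level of the 80 genes in that library was 2168 CPM. What sets the 3 high libraries apart was not tested. On the score from the other genes they lay nearer to the effective 600 ppm mean than to the effective 420 ppm mean. So did the 4 other 420 ppm libraries with a score above 0. Whether labels were exchanged with those of 600 ppm libraries was not tested, so the CO2 labels of the 3 are not taken as certain. Values of ineffective plants that include these groups depend on the labels. The 3 libraries entered the rule, so results are given with and without them.

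**Figure D1:**
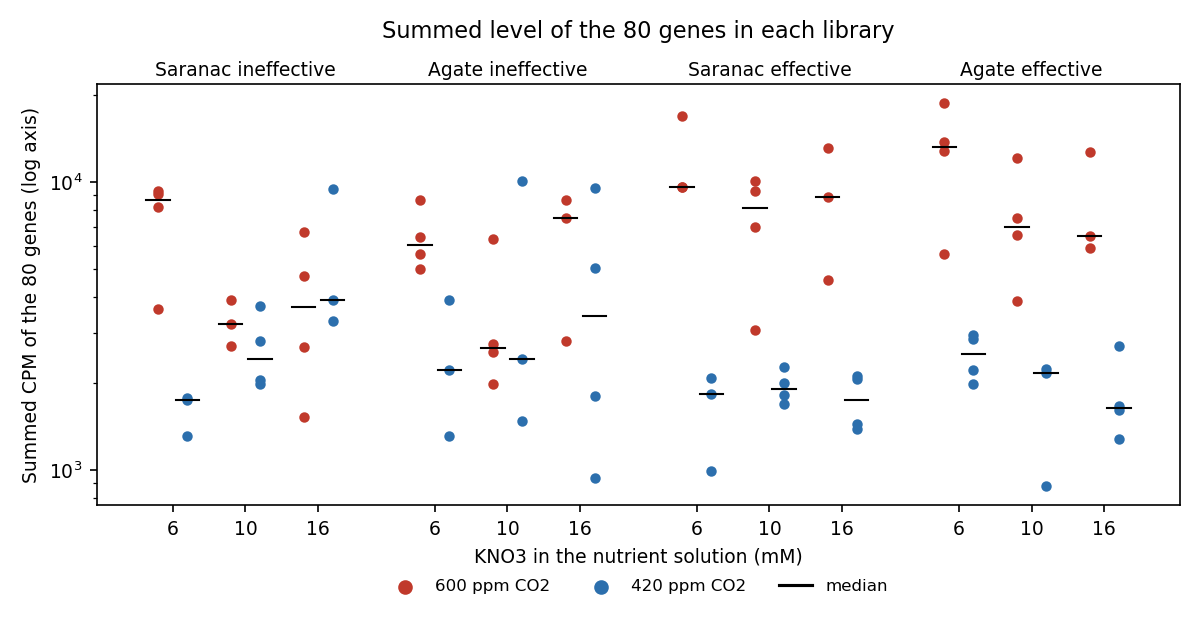
Summed CPM of the 80 genes in each of the 85 libraries (points, logarithmic axis), by line, KNO3 level and CO2 level, with the group medians as bars. Effective libraries at 600 ppm lie above all effective libraries at 420 ppm, a difference for which the genes were chosen. In ineffective plants 3 libraries at 420 ppm reach 9441 to 10076 CPM.

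In effective plants the summed levels at the CO2 levels did not overlap. They ran from 3066 to 18748 CPM with a median of 9280 at 600 ppm (n = 21), against 882 to 2942 CPM with a median of 1998 at 420 ppm (n = 22). In ineffective plants they ran from 1536 to 9298 CPM with a median of 4847 at 600 ppm (n = 22), against 941 to 10076 CPM with a median of 2328 at 420 ppm (n = 20). Ineffective libraries at 420 ppm lay above the lowest effective library at 600 ppm in 8 of 20 cases. Effective libraries at 600 ppm were themselves uneven: the number of the 80 genes that were high ran from 39 to 79 with a median of 68. The lowest, 39, 40 and 44, were Agate at 10 mM replicate 3, Saranac at 10 mM replicate 3 and Saranac at 16 mM replicate 1. Those 3 libraries also had the lowest scores on the other 12627 genes among effective libraries at 600 ppm, -0.15, -0.16 and -0.073.

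By construction the response to CO2 was large in effective plants. Its median over the 80 genes was 2.11 in effective Saranac and 2.08 in effective Agate on the log2 scale, beside 0.21 and 0.25 over all 12707 genes. All 80 responses were positive in both effective lines, from 0.98 to 4.93 in Saranac and from 0.87 to 4.09 in Agate. A response above 1 in both effective lines was found for 78 genes and one above 2 for 37. Higher levels at 600 ppm in all 6 combinations of effective line and nitrate level were found for 76 genes. With library sizes scaled by TMM, which sets the median response of all genes close to 0, the medians of the 80 were 1.89 in effective Saranac and 1.87 in effective Agate.

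The description of these genes as raised in effective plants alone holds for some of them and not for others. The median response was 0.45 in ineffective Saranac and 0.55 in ineffective Agate, beside 0.32 and 0.31 over all genes. With TMM scaling these medians of the 80 were 0.18 and 0.31. Of the 80 genes, 59 had a positive response in both ineffective lines, 13 had one above 1 in both, and 28 had one above 1 in at least 1 of them. Responses within 0.5 of 0 in both ineffective lines were found for 32 genes, and 7 genes responded negatively in both. Shares of all genes are not given here for these counts or those below, so they are not read as particular to the 80. Averaged over the cultivars, 73, 57 and 37 of the 80 were above 0 in ineffective plants at 6, 10 and 16 mM. Over all 12707 genes this held for 8583, 9703 and 9334. With the 3 high libraries left out, the medians were 0.68 in ineffective Saranac and 0.99 in ineffective Agate. The number above 1 in both ineffective lines was then 21, the number above 0 in both was 69, and the number within 0.5 of 0 in both was 16. With all libraries the smaller effective response exceeded the larger ineffective one for all 80 genes, which the choice itself fixed. Without the 3 this also held for all 80, but the effective responses are the same in both settings. Applied anew without the 3, the rule kept 52 of the 80. The rule picks genes raised more by CO2 in effective than in ineffective plants. Not all of them were raised in effective plants alone, since 13 had a response above 1 in both ineffective lines with all libraries.

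Seen by level, the class difference in response was present on both sides. At 600 ppm the 80 genes were lower in ineffective than in effective plants, with a median difference of -0.85 in Saranac and -0.79 in Agate. Only 10 of the 80 in Saranac and 1 of the 80 in Agate were higher in ineffective plants at 600 ppm. At 420 ppm they were higher in ineffective plants, with a median difference of 0.79 in Saranac and 0.57 in Agate and with 71 and 76 of the 80 genes higher. The 3 high libraries weigh on these values: without them the median difference at 420 ppm was 0.59 in Saranac and 0.16 in Agate, with 66 and 52 of the 80 genes higher in ineffective plants. Over all 12707 genes the 4 medians with all libraries lay between 0.0065 and 0.12. These differences follow from the CO2 responses that chose the genes and are given as a description.

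For orientation, the quasi-likelihood F-test of edgeR, with p-values adjusted over the 24386 genes tested by the Benjamini-Hochberg method and called at 0.05, was run on the contrasts that the rule used. For CO2 in effective plants it called 79 of the 80 genes, all higher at 600 ppm, beside 30.4% of all genes called in either direction and 16% called higher. For CO2 in ineffective plants it called 15, of which 10 were higher and 5 lower, beside 34.7% of all genes in either direction, 16.8% higher and 17.9% lower. That last count was 30 without the 3 high libraries, 28 higher and 2 lower, beside 36% of all genes in that setting. For the difference of the responses, ineffective minus effective, it called 66 of the 80, all lower in ineffective plants, beside 10.1% of all genes in either direction and 5.73% lower. In the setting without those libraries 34 were called, beside 8.21% of all genes. Since the genes were chosen on these contrasts, the counts carry no information beyond the choice.

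**Figure D2:**
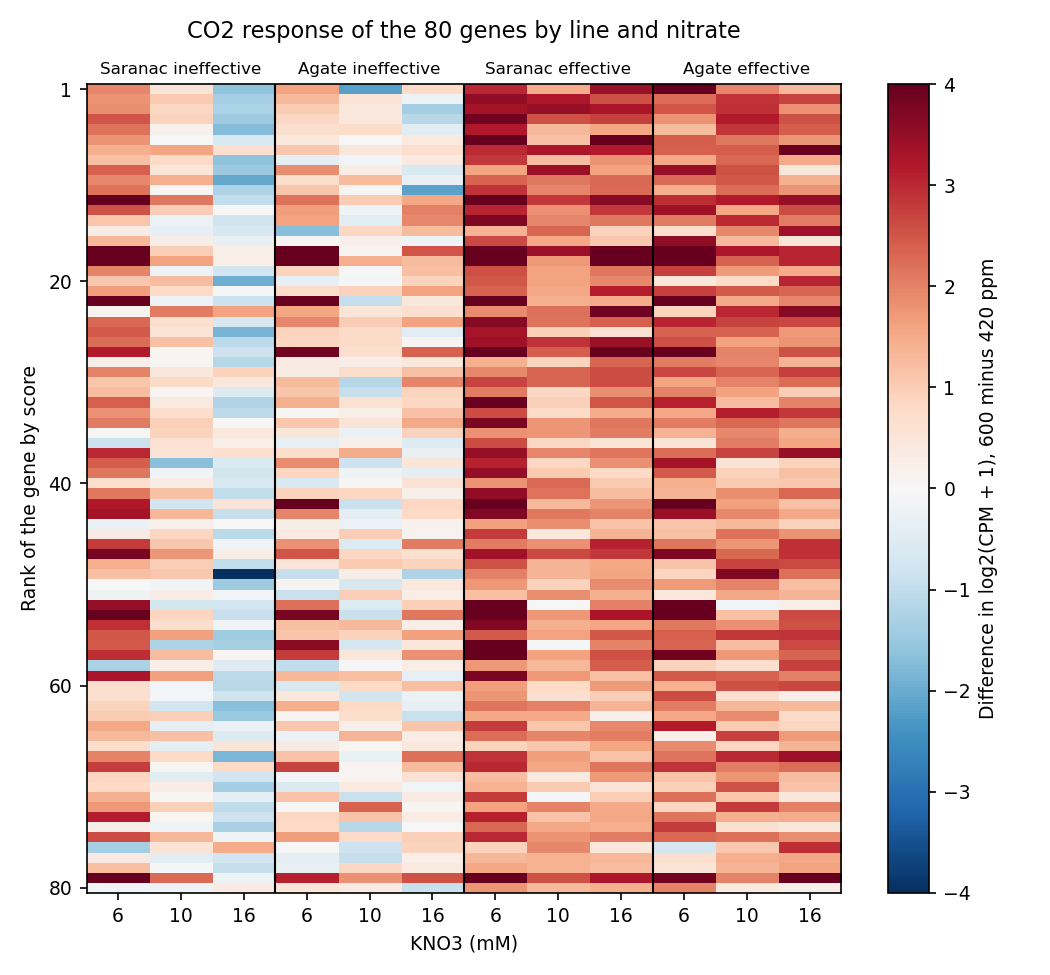
Difference in log2(CPM + 1) between 600 and 420 ppm for the 80 genes (lines of the map, ordered by score) in each line and at each KNO3 level, with colours saturated at 4 and -4. Responses are positive nearly throughout the effective lines, and in the ineffective lines they are strongest at 6 mM and mostly negative in Saranac at 16 mM.

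The rule averaged the nitrate levels, and the response of ineffective plants was very uneven over them. Its median over the 80 genes was 1.34 at 6 mM, 0.39 at 10 mM and then -0.039 at 16 mM, beside 0.27, 0.38 and 0.30 over all genes. The number of genes with an ineffective response above 1 was 50 at 6 mM, 16 at 10 mM and 8 at the highest level, beside 14.7%, 11.5% and 9.83% of all genes. The count at 16 mM is thus close to the share of all genes. At 6 mM the median was 1.85 in ineffective Saranac and 0.88 in ineffective Agate. At 10 mM it was 0.54 in ineffective Saranac and 0.28 in ineffective Agate. At 16 mM it was -0.76 in ineffective Saranac and 0.48 in ineffective Agate. The median thus fell at each step in Saranac, while in Agate it was higher at 16 than at 10 mM. So at the lowest nitrate level most of these genes were also higher at 600 ppm in ineffective plants. In effective plants the medians were 2.53 at 6 mM, then 1.74 (10 mM) and 1.92 (16 mM), beside 0.11, 0.19 and 0.36 over all genes.

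The fall of the median over nitrate in ineffective plants was smaller without the 3 high libraries, which all belong to 10 or 16 mM at 420 ppm. The ineffective medians were then 1.34 at 6 mM, then 0.75 (10 mM) and 0.50 (16 mM), and the numbers above 1 were 50, 28 and 21, beside 14.7%, 12.4% and 13.4% of all genes. Over all genes the medians in that setting were 0.27, 0.36 and 0.39. Averaged over the cultivars, the order of the nitrate levels was thus the same with and without them, while the size of the decline differed. With all libraries that order did not hold in Agate by itself, and medians of each cultivar without the 3 are not given here.

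**Figure D3:**
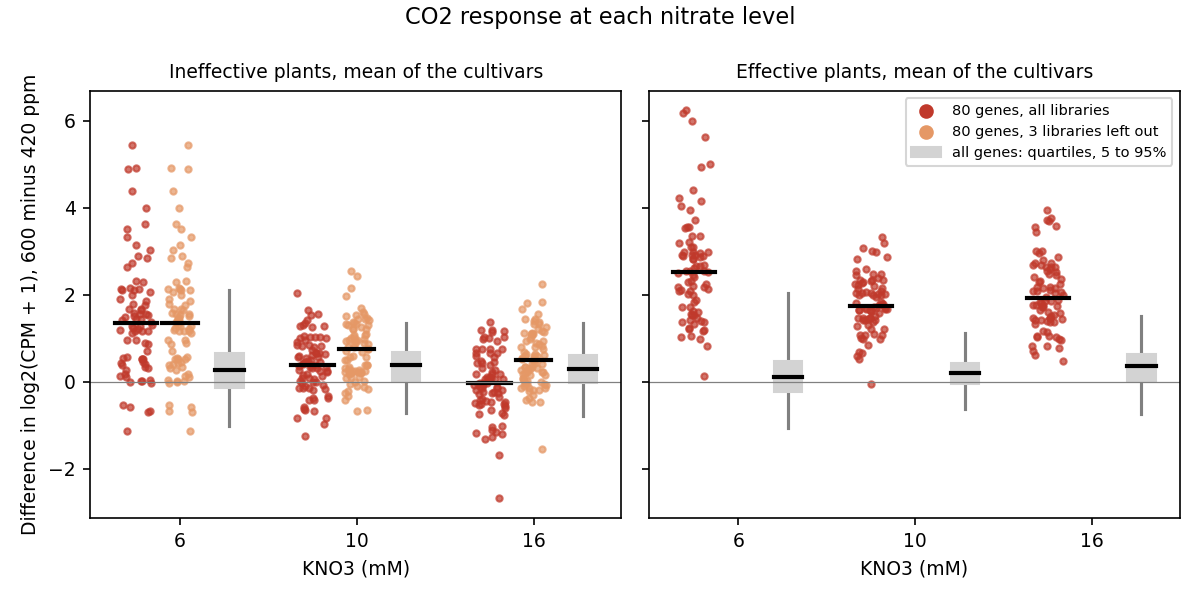
Difference in log2(CPM + 1) between 600 and 420 ppm at each KNO3 level, averaged over the cultivars, for the 80 genes (points, bar at the median) with all libraries and, in ineffective plants, without the 3 high libraries, beside the quartiles and the 5 to 95% range of all 12707 genes. The median of the 80 genes in ineffective plants goes with nitrate as 1.34, 0.39 and -0.039 with all libraries, and as 1.34, 0.75 and 0.50 without the 3.

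Few libraries of a nitrate level were separated completely by CO2. In ineffective plants at 6 mM, 16 of the 80 genes had all 8 libraries at 600 ppm above all 6 at 420 ppm, beside 8.2% of the 12707 genes. At 10 and 16 mM this held for 0 of the 80 in ineffective plants, beside 6.26% and 3.47% of all genes. Leaving out the 3 high libraries, it held for 1 at 10 mM and for 0 at 16 mM, beside 6.93% and 11.9%. In effective plants it held for 24 of the 80 at 6 mM, then 9 (10 mM) and 13 (16 mM), beside 7.96%, 1.27% and 6.48% of all genes. The genes were chosen for a large CO2 difference in effective plants and a small one in ineffective plants. These counts rest on the same values and are given as a description.

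The differences between nitrate levels in the response to CO2 were tested, since the rule averages over them. The libraries themselves did enter the rule, so these tests are not free of it where 1 library dominates a group. In ineffective plants the response at 6 mM minus that at 16 mM had a median of 1.68 on the log2 scale over the 80 genes, beside 0.055 over all genes tested, and was positive for 72 of the 80. An unadjusted p under 0.05 was found for 42 of the 80, beside 12.9% of all genes. After adjustment edgeR called 4 of the 80, all with a larger response at 6 mM. Over all genes edgeR called 0.32% in either direction and 0.291% in that one. DESeq2 called 26 of the 80. Its share of all genes is not given here, so that count is not to be set beside the edgeR shares. Without the 3 high libraries edgeR called 0 of the 80 and the median was 0.90, and leaving out either of the 2 at 16 mM alone also gave 0. It called 0 as well without ineffective Saranac at 6 mM and 420 ppm replicate 3, a library whose title number lies among those of 16 mM libraries, so that its nitrate label is in doubt.

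The response of ineffective plants at 6 mM minus that at 10 mM had a median of 1.17, beside 0.025 over all genes, and was positive for 64 of the 80. Here edgeR called 12 of the 80, all with a larger response at 6 mM, beside 2.64% of all genes in either direction and 2.12% in that one. It called 0 without the 3 high libraries and the median was 0.44. Leaving out Agate at 10 mM and 420 ppm replicate 1 alone gave 0 as well. Both counts thus depended on single libraries. With all libraries both medians lay above those of all genes, and without the 3 they were smaller and still positive. The 80 genes were chosen with the 3 included, so the medians are not free of the choice and are given as a description.

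In effective plants edgeR called 1 of the 80 for the response at 6 mM minus that at 16 mM, beside 0.103% of all genes in either direction and 0.0574% in that one. It called 2 for 6 mM minus 10 mM, beside 2.39% in either direction and 1.71% in that one. All 3 calls were of a larger response at 6 mM. The medians were 0.71 for 6 minus 16 mM and 0.31 for 6 minus 10 mM. The counts were 2 and 5 without the 3 high libraries. Whether the dependence on nitrate differed between the classes was tested by a contrast added after the data had been seen, the 6 minus 16 mM response of ineffective minus that of effective plants. By edgeR 0 of the 80 passed, with 11 at an unadjusted p under 0.05 beside 6.43% of all genes, and 0 of all genes passed (0%). By DESeq2 1 of the 80 passed, beside 0.574% of all genes. The median was 1.04 with all libraries and 0.22 without the 3, so a difference between the classes in the dependence on nitrate was not detectable with these libraries.

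Single genes show how these values arise. The gene with the largest 6 minus 10 mM difference of those called in effective plants was MsG0580024168.01. In effective Saranac at 6 mM it had 244, 175 and 88.9 CPM at 600 ppm, against 0.0444, 1.05 and 0 CPM at 420 ppm. In effective Agate at 6 mM it had 141, 3.05, 176 and 136 CPM at 600 ppm, against 0.791, 0.553, 0.165 and 0.25 CPM at 420 ppm. At 6 mM every 600 ppm library thus lay above every 420 ppm library. At 10 mM the ranges overlapped, with 0.445, 2.7, 11.4 and 13.7 CPM in effective Saranac at 600 ppm against 1.27, 1.73, 6.26 and 19.2 CPM at 420 ppm. They overlapped in effective Agate too, where 0.35, 0.879, 12.8 and 82.3 CPM at 600 ppm stood against 1.01, 1.4 and 101 CPM at 420 ppm. The 6 minus 10 mM difference of its response was 8.68 ± 1.66 (log2, SE) with an adjusted p of 0.00458 by edgeR, and over the alternatives this p ran from 2.57e-08 to 0.264. Several 420 ppm libraries at 6 mM held few or no counts, so the size of this fold change depends on the prior count of the fit. The other gene called was MsG0580024176.01, with 3.77 ± 1.1 and an adjusted p of 0.0466, which ran from 0.007 to 0.709 over the alternatives.

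In ineffective plants MsG0180005849.01 was among the called genes with the largest differences for both nitrate contrasts. At 6 mM it had 44.1, 37.9, 39.96 and 55.7 CPM in ineffective Saranac at 600 ppm, against 0.485, 0.271 and 0.414 CPM at 420 ppm. In ineffective Agate at 6 mM it had 67.1, 73.9, 10.7 and 23.003 CPM at 600 ppm, against 0.698, 0.165 and 0.0408 CPM at 420 ppm. At 6 mM the CO2 levels were thus fully apart in both ineffective lines. At 10 mM ineffective Agate had 2.85, 10.3, 0.748 and 34.6 CPM at 600 ppm, against 458, 0.499 and 2.93 CPM at 420 ppm, where the 458 CPM stand in one of the 3 high libraries. At 10 mM ineffective Saranac had 1.4, 6.29 and 15.7 CPM at 600 ppm, against 35.04, 1.96, 3.13 and 6.7 CPM at 420 ppm. The 6 minus 10 mM difference was 9.24 ± 1.65 with an adjusted p of 0.004 by edgeR, and this p ran from 2.35e-10 to 0.267 over the alternatives. The 6 minus 16 mM difference was 7.08 ± 1.58 with an adjusted p of 0.0341, which ran from 7.28e-06 to 0.595. With the 3 high libraries left out, these were 5.93 with an adjusted p of 0.0785 and 6.72 with an adjusted p of 0.0585.

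For MsG0580024990.01, the other named gene of the 6 minus 16 mM contrast in ineffective plants, the highest level of all stood in 1 library. At 16 mM ineffective Agate had 0.259, 1.3 and 0.782 CPM at 600 ppm, against 379, 0.131, 0.34 and 4.74 CPM at 420 ppm. The 379 CPM stand in Agate at 16 mM replicate 1, one of the 3 high libraries. At 6 mM ineffective Saranac had 1.46, 12.4, 72.4 and 20.6 CPM at 600 ppm, against 20.4, 0.434 and 0.237 CPM at 420 ppm, so the CO2 levels overlapped. The fitted difference was 7.25 ± 1.62 with an adjusted p of 0.0341, and over the alternatives this p ran from 8.59e-06 to 0.595. It was 3.42 with an adjusted p of 0.409 without the 3 high libraries.

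Nitrate itself, averaged over the CO2 levels, gave no call among the 80 genes by the adjusted edgeR test. For 6 minus 16 mM in ineffective plants edgeR called 0 of the 80, beside 0.0779% of all genes. There 8 of the 80 had an unadjusted p under 0.05, beside 11.9% of all genes, and DESeq2 called 3, all lower at 6 mM, beside 1.58% of all genes. In effective plants edgeR called 0 of the 80, beside 0.0041% of all genes, with 7 at an unadjusted p under 0.05, beside 8.28% of all genes, and 0 called by DESeq2. The medians over the 80 were -0.36 in ineffective and 0.36 in effective plants, and the ineffective median was 0.026 without the 3 high libraries.

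The 4 genes given in full are those with the highest scores and those with the highest mean levels. The top score belonged to MsG0880046232.01, a low-abundance gene with a count of 0 in 19 of the 85 libraries. Its lowest, median and highest levels in ineffective plants were 0, 1.497 and 10.5 CPM at 600 ppm (n = 22), against 0, 0.428 and 187 CPM at 420 ppm (n = 20). In effective plants they were 0, 13.3 and 56.8 CPM at 600 ppm (n = 21), against 0, 0.183 and 11.9 CPM at 420 ppm (n = 22). The ranges overlapped in both classes, and the 187 CPM stand in the high library of Agate at 10 mM. The next highest ineffective level at 420 ppm, 20.9 CPM, was in the high library of Saranac at 16 mM. Because many groups were at or near 0, its fitted fold changes depend on the prior count, and for the difference of the responses between the classes the fit gave no usable standard error, so none is given. The 6 minus 10 mM difference of its response in ineffective plants was 9.54 ± 2.35 with an adjusted p of 0.0161 by edgeR, and this p ran from 3.13e-15 to 0.497 over the alternatives. It was 5.53 with an adjusted p of 0.315 without the 3 high libraries.

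MsG0480022310.01, ranked next, was counted in every library. Its lowest, median and highest levels in ineffective plants were 3.26, 18.6 and 227 CPM at 600 ppm, against 1.10, 11.2 and 256 CPM at 420 ppm. In effective plants they were 10.5, 58.3 and 727 CPM at 600 ppm, against 1.04, 8.64 and 76.8 CPM at 420 ppm. Ineffective plants overlapped over nearly the whole range, and effective plants overlapped between 10.5 and 76.8 CPM. Fitted log2 fold changes for CO2 were 0.19 ± 0.455 in ineffective and 2.87 ± 0.481 in effective plants (SE), given as a description. For the contrasts free of the rule it passed only for ineffective minus effective in Saranac, with -1.43 ± 0.464 and an adjusted p of 0.0204 by edgeR, which ran from 0.00489 to 0.207 over the alternatives.

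MsG0880042368.01 had the highest mean level of the 80. Its lowest, median and highest levels in ineffective plants were 337, 950.2 and 2167 CPM at 600 ppm, against 118, 379.6 and 1167 CPM at 420 ppm. In effective plants they were 464, 1300.4 and 3318 CPM at 600 ppm, against 95.6, 269 and 482 CPM at 420 ppm. Effective plants thus overlapped only between 464 and 482 CPM. At 6 mM ineffective Saranac had 834, 1162, 1659.7 and 1784 CPM at 600 ppm, against 170.1, 171 and 246 CPM at 420 ppm. At 10 mM ineffective Saranac had 337, 384 and 428 CPM at 600 ppm, against 217, 303, 484 and 550.02 CPM at 420 ppm. The CO2 levels of that line were thus apart at 6 mM and overlapped at 10 mM. The 6 minus 10 mM difference of its response in ineffective plants was 2.84 ± 0.548 with an adjusted p of 0.0042 by edgeR, and this p ran from 1.02e-05 to 0.237 over the alternatives. It was 2.39 with an adjusted p of 0.0782 without the 3 high libraries.

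MsG0280011349.01, next in mean level, also overlapped in both classes. Its lowest, median and highest levels in ineffective plants were 25.7, 646 and 2423 CPM at 600 ppm, against 13.8, 47.9 and 1567 CPM at 420 ppm. In effective plants they were 31.9, 1155 and 3327 CPM at 600 ppm, against 6.72, 28.5 and 112 CPM at 420 ppm. Within effective plants at 600 ppm the libraries fell far apart at 10 mM, where Agate had 31.9, 44.6, 1159 and 2028 CPM. In ineffective Agate at 10 mM and 600 ppm it had 25.7, 28.004, 177 and 1416 CPM, and in 420 ppm libraries of that line and nitrate level it had 27.2, 27.8 and 1567 CPM. In these 3 groups most libraries were either low or high with little between. The 6 minus 10 mM difference of its response in ineffective plants was 5.26 ± 1.31 with an adjusted p of 0.0166 by edgeR, and this p ran from 0.000196 to 0.381 over the alternatives. It was 3.00 with an adjusted p of 0.278 without the 3 high libraries.

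**Figure D4:**
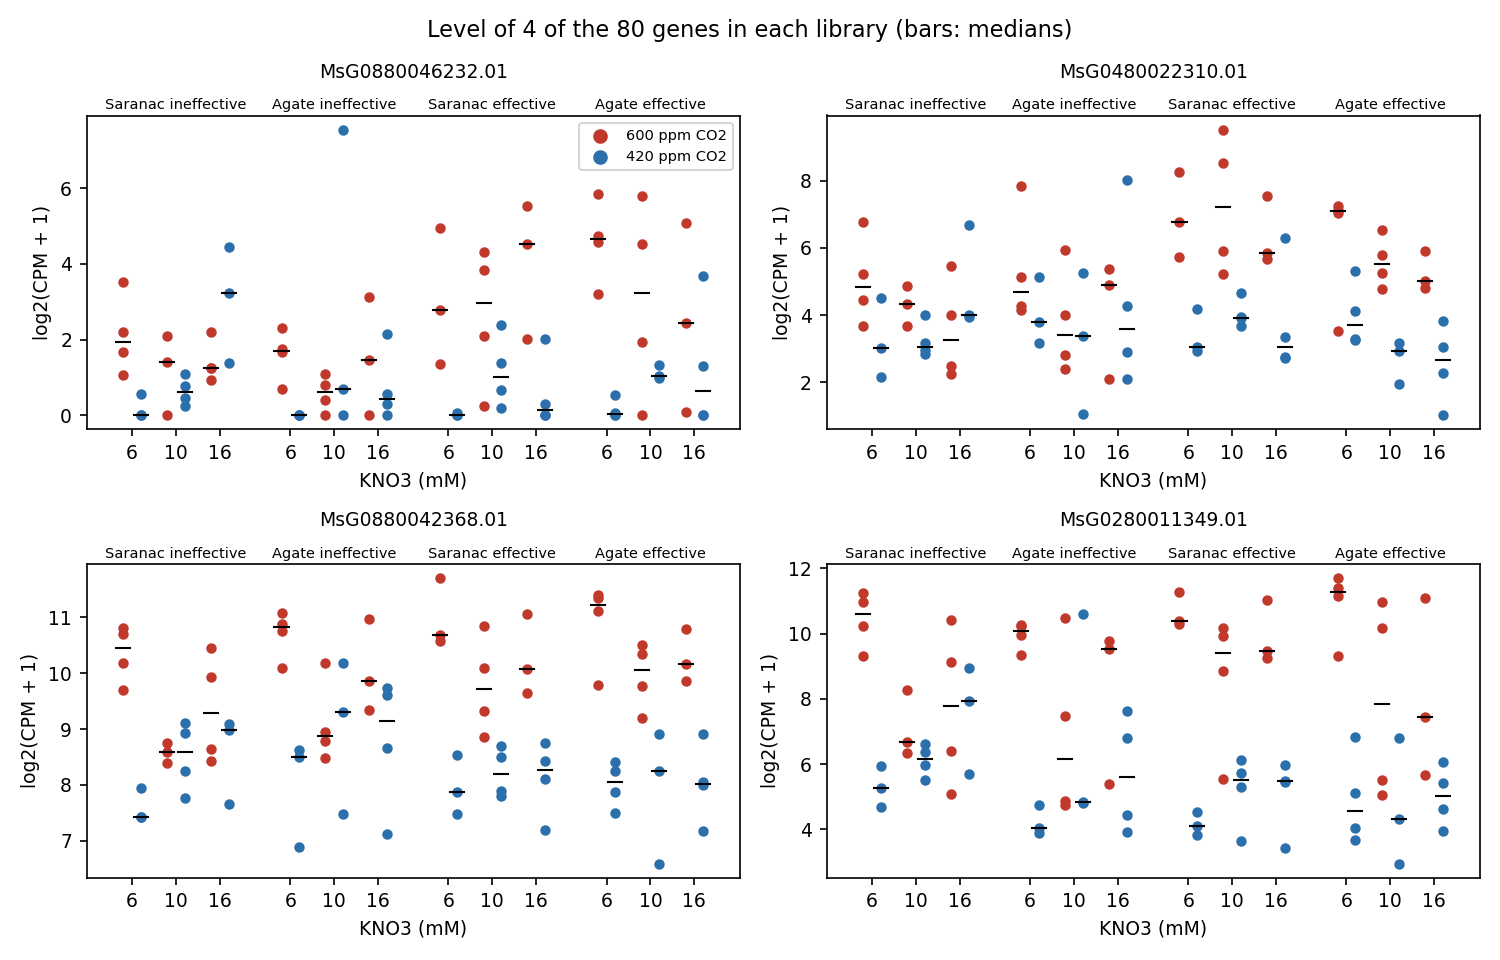
Level of the 2 genes with the highest scores (upper panels) and the 2 with the highest mean CPM (lower panels) as log2(CPM + 1) in each of the 85 libraries, by line, KNO3 level and CO2 level, with group medians as bars. MsG0880042368.01 and MsG0280011349.01 separate the CO2 levels at 6 mM in all 4 lines, and single 420 ppm libraries of ineffective plants at 10 and 16 mM reach the levels of 600 ppm libraries.

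The 80 genes were uneven between libraries of the same group. A choice of the largest differences between means of 3 or 4 libraries can favour uneven genes and genes that deviate together. The values below are therefore a description. The standard deviation of log2(CPM + 1) around the group means had a median of 1.22 over the 80, beside 0.45 over all 12707 genes, and it was above the median of all genes for each of the 80. Without the 3 high libraries the medians were 1.09 over the 80 and 0.43 over all genes. The deviations also ran together. Pearson's r between the deviations of 2 genes had a median of 0.32 over the 3160 pairs among the 80, and 22.0% of the pairs exceeded 0.5. Among all pairs of the 12707 genes the median was 0.058 and 1.88% exceeded 0.5. These are descriptions over pairs of genes that share 85 libraries, and without the 3 high libraries the median was 0.25 among the 80 and 0.053 among all genes, with 14.6% and 1.40% above 0.5. The covariation was not uniform. For 52 of the 80 genes the median r with the other members was above 0.3, and for 8 it was below 0.1.

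**Figure D5:**
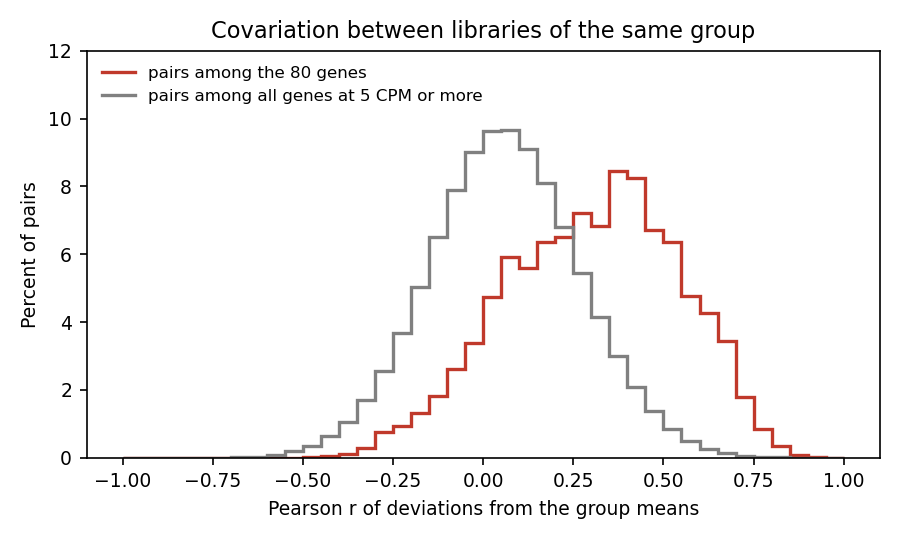
Percent of gene pairs by the Pearson r of their deviations from the group means over 85 libraries, for the 3160 pairs among the 80 genes and for all pairs among the 12707 genes. The median is 0.32 among the 80 genes and 0.058 among all genes.

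Identifiers that lie close together in the table made up 6 pairs of the 80 genes, within 5 rows of each other, and 3 of them were in adjacent rows. Their residual r ran from 0.47 to 0.92. The genes ranked next to the top, MsG0480022310.01 and MsG0480022311.01, are in adjacent rows with an r of 0.85. The table gives no coordinates or sequences, so it cannot be told apart whether such pairs are neighbouring genes, copies that share reads, or both, and the 80 genes are not 80 independent observations.

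Fixation class averaged over CO2 and nitrate was not used by the rule. For ineffective minus effective plants over both cultivars edgeR called 14 of the 80 genes, of which 5 were higher and 9 lower in ineffective plants, beside 22% of all genes in either direction, 10.6% higher and 11.4% lower, and the median over the 80 was 0.0059. The share of the 80 is thus near that of all genes, and no common direction was seen. With the 3 high libraries left out 17 were called, of which 2 were higher and 15 lower, and the median was -0.29. The split of directions among the 80 therefore depended on those libraries. Without those libraries, shares of all genes are not given here for comparisons of class or cultivar. Such counts are therefore not read as particular to the 80. In Saranac 16 of the 80 were called, 5 higher and 11 lower in ineffective plants, beside 21.3% of all genes in either direction, 10.1% higher and 11.2% lower. In Agate 1 was called, lower in ineffective plants, beside 11.2% of all genes in either direction and 5.31% lower, and 6 were called without the 3 high libraries, all lower. Of the 16 called in Saranac, 13 had the same sign in Agate.

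Differences in either direction are shown by 4 genes. MsG0680032751.01 was higher in ineffective plants over both cultivars together. Its median was 17.1 CPM in ineffective Saranac (range 1.19 to 33.99, n = 21) and 2.20 CPM in ineffective Agate (0.53 to 20.1, n = 21), against 1.58 CPM in effective Saranac (0.52 to 24.6, n = 21) and 1.43 CPM in effective Agate (0.13 to 32.1, n = 22). All 4 ranges overlapped, and ineffective Saranac had the highest median. In Agate by itself the class difference was not called, at 0.94 ± 0.444 with an adjusted p of 0.166 by edgeR. At 600 ppm its Agate median was lower in ineffective plants, 1.80 against 2.19 CPM. The class difference over both cultivars was 1.52 ± 0.317 with an adjusted p of 0.000307 by edgeR, which ran from 5.89e-06 to 0.0119 over the alternatives. MsG0780039438.01 was also higher in ineffective plants over both cultivars together, by 1.32 ± 0.299 with an adjusted p of 0.000831 by edgeR. That p ran from 4.03e-05 to 0.0555 over the alternatives. Its highest levels, 510.7 CPM in ineffective Agate and 476 CPM in ineffective Saranac, stand in 2 of the 3 high libraries, and its highest effective level was 67.2 CPM. Without the 3 the difference was 0.83 with an adjusted p of 0.0164. With all libraries its class difference in Agate by itself was not called, at 0.75 ± 0.414 with an adjusted p of 0.253 by edgeR. Its Agate median at 600 ppm was lower in ineffective plants, 19.4 against 26.7 CPM.

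MsG0480018690.01 was lower in ineffective plants over both cultivars together. Its median was 82.3 CPM in ineffective Saranac (23.9 to 199) and 129 CPM in ineffective Agate (7.84 to 353), against 249 CPM in effective Saranac (14.9 to 1032) and 245 CPM in effective Agate (19.5 to 840). The medians of both ineffective lines lay below those of both effective lines, with overlapping ranges. At 420 ppm alone its median was 134 CPM in ineffective Agate, against 138 CPM in effective Agate, and in Agate by itself the class difference was not called, at -0.91 ± 0.323 with an adjusted p of 0.0534. The class difference was -1.40 ± 0.232 with an adjusted p of 9.7e-06 by edgeR, which ran from 1.15e-08 to 0.00381 over the alternatives. MsG0380017780.01 was lower by the largest amount over both cultivars, -1.58 ± 0.388 with an adjusted p of 0.00199, which ran from 0.000135 to 0.0759. Its median was 0.44 CPM in ineffective Saranac and 2.63 CPM in ineffective Agate, against 2.78 CPM in effective Saranac and 3.23 CPM in effective Agate. Its class difference thus lay mainly in Saranac, where it was -2.91 ± 0.58 with an adjusted p of 0.000211, which ran from 5.53e-07 to 0.0207. In the same cultivar MsG0680035451.01 was lower in ineffective plants by -2.58 ± 0.736, with an adjusted p of 0.0083 that ran from 0.00131 to 0.0511.

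The class difference itself differed between the cultivars for 4 of the 80 genes, 1 higher and 3 lower in Saranac minus Agate, beside 8.64% of all genes in either direction, 3.79% higher and 4.85% lower, and for 7 without the 3 high libraries. MsG0380017780.01 was one of them, with -2.65 ± 0.767 and an adjusted p of 0.0195, which ran from 0.00391 to 0.145 over the alternatives. MsG0880043461.01 was another, with -1.41 ± 0.242 and an adjusted p of 6.68e-05, which ran from 9.04e-07 to 0.0135. Its median was 5.24 CPM in ineffective Saranac and 13.2 CPM in ineffective Agate, against 8.54 CPM in effective Saranac and 10.3 CPM in effective Agate. At 600 ppm its median was lower in ineffective plants in both cultivars, 5.75 CPM in ineffective Saranac and 13.96 CPM in ineffective Agate, against 15.3 CPM in effective Saranac and 15.2 CPM in effective Agate. At 420 ppm it was 5.23 CPM in ineffective Saranac and 12.7 CPM in ineffective Agate, against 7.04 CPM in effective Saranac and 6.13 CPM in effective Agate. The order of the classes was thus opposite in the cultivars at 420 ppm and the same at 600 ppm, and in Agate by itself the class difference was not called (adjusted p = 0.192). MsG0180001457.01 was the one with the positive difference, 1.74 ± 0.493 with an adjusted p of 0.0166, which ran from 0.00393 to 0.107. It was the gene called in Agate alone, lower in ineffective plants by -1.73 ± 0.354 with an adjusted p of 0.000604, which ran from 8.82e-06 to 0.0254.

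Cultivars were compared within each class. For Saranac minus Agate in ineffective plants edgeR called 13 of the 80 genes, 4 higher and 9 lower in Saranac, beside 22.5% of all genes in either direction, 10.1% higher and 12.4% lower. In the setting without the 3 high libraries 17 were called, 11 higher and 6 lower, so the majority direction among the 80 turned. The split over all genes in that setting is not given here. MsG0680032751.01 was higher in ineffective Saranac by 1.89 ± 0.45 with an adjusted p of 0.00129, which ran from 6.91e-05 to 0.0161 over the alternatives. MsG0180001120.01 was higher by 1.31 ± 0.399 with an adjusted p of 0.0122, which ran from 0.000212 to 0.0952, and its median was 112 CPM in ineffective Saranac and 32.7 CPM in ineffective Agate. MsG0680035451.01 was lower in ineffective Saranac by -2.66 ± 0.738 with an adjusted p of 0.00585, which ran from 0.000788 to 0.0425. Its median was 0.16 CPM in ineffective Saranac, with a count of 0 in 6 of 21 libraries, and 10.955 CPM in ineffective Agate. MsG0780039135.01 was lower by -1.98 ± 0.546 with an adjusted p of 0.00551, which ran from 0.000633 to 0.407. The highest p came without the 3 high libraries, where its difference was -0.62. Its median was 1.36 CPM in ineffective Saranac (0.0607 to 7.81, n = 21) and 2.48 CPM in ineffective Agate (0 to 77.04, n = 21).

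In effective plants Saranac minus Agate gave 1 called gene of the 80, MsG0180001457.01, lower in Saranac, beside 2.49% of all genes in either direction and 1.19% lower. Its median was 8.90 CPM in effective Saranac (0.42 to 42.02, n = 21) and 15.8 CPM in effective Agate (3.84 to 258, n = 22). The difference was -1.68 ± 0.354 with an adjusted p of 0.00423 by edgeR, which ran from 6.09e-05 to 0.0966 over the alternatives. Of the 80 genes, 10 had an unadjusted p under 0.05 in this comparison, beside 15.3% of all genes.

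Membership of the 80 depended on single libraries and on the settings of the rule. With the other settings tried, 58 to 71 of the 80 were kept: 61 with TMM scaling, 71 with a pseudocount of 0.5, 58 with a pseudocount of 5, 66 and 60 with a minimum of 1 and 10 CPM, and 70 with libraries weighted equally. Leaving out each of the 85 libraries in turn kept 59 to 77 with a median of 74, and the fewest were kept without Agate ineffective at 10 mM and 420 ppm replicate 1. Leaving out a whole replicate number kept 28 to 55, and leaving out the 3 high libraries kept 52.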

How the data were processed

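Leaf mRNA was sequenced with a stranded library kit, per the labels' protocols. The authors deposited raw read counts per gene, and the submitters' processing notes name featureCounts. Aligner, genome build, annotation, strand setting and tool version: not given in the sources used here. None of the 49095 identifiers (0) matched the RefSeq gene table of the assembly Bolivia_mono. CPM were counts over the library total, used with a pseudocount of 1 for levels and for the rule. Tests used edgeR 4.0.16 (R 4.3.3): glmQLFTest with robust dispersions and TMM scaling in 1 model of the 24 groups, 24386 genes after filterByExpr, Benjamini-Hochberg adjustment, calls at 0.05, and a standard error equal to the fold change over the square root of F. Contrasts weighted groups equally. The script was tested on simulated counts. DESeq2 1.42.0, its size factors, no filter, the replicate number as a block, each replicate number left out and 1 library whose title number is out of order left out were alternatives. Leaving out the 3 high libraries, together and singly, was added after seeing the data. The genes and contrasts were chosen with earlier results of these data known. Single genes named are the 2 with the highest score, the 2 with the highest mean CPM and, per contrast the rule did not use, at most 2 called genes with the largest fold change in each direction. Whether the replicate numbers pair the libraries was not settled. Intervals over the alternatives are of adjusted p-values.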

Additional observations from a re-analysis of the deposited data

Results flagged for a closer look

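Groups of 4 libraries were checked for a library far from the others, on the summed CPM of the 80 genes and on the CPM of the 4 genes given in full. Of 65 checks 12 stood out, where chance alone flags about 1 in 20 groups of independent, evenly spread values. The checks share libraries and CPM values are skewed, so the count is not read against that rate. The summed CPM was 6347 in 1 library of ineffective Agate at 10 mM and 600 ppm, and in that group MsG0880042368.01 reached 1156 CPM and MsG0280011349.01 reached 1416 CPM. MsG0480022310.01 reached 227 CPM in ineffective Agate at 6 mM and 600 ppm, 256 CPM in ineffective Agate at 16 mM and 420 ppm and 76.8 CPM in effective Saranac at 16 mM and 420 ppm. It was low, at 10.5 CPM, in 1 library of effective Agate at 6 mM and 600 ppm. MsG0880046232.01 reached 3.56 CPM in ineffective Saranac at 16 mM and 600 ppm and 3.45 CPM in ineffective Agate at 16 mM and 420 ppm. It reached 3.01 CPM in effective Saranac at 16 mM and 420 ppm, 0.452 CPM in effective Agate at 6 mM and 420 ppm and 11.9 CPM in effective Agate at 16 mM and 420 ppm. The response to CO2 differed between nitrate levels by the adjusted edgeR test for 4 of the 80 genes (6 minus 16 mM) and 12 (6 minus 10 mM) in ineffective plants, beside 0.32% and 2.64% of all genes, and for 1 and 2 in effective plants, beside 0.103% and 2.39%. Both counts of ineffective plants were 0 without the 3 high libraries, and a single one of them left out was enough for that. The class difference differed between the cultivars for 4, beside 8.64%.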

How the results depend on the processing

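The counts below are of the 80 genes called by the adjusted test. Leaving out each replicate number gave 9 to 28 called for CO2 in ineffective plants and 21 to 68 for the difference of the responses. It gave 0 to 1 and 0 to 6 for the response at 6 minus 16 mM and 6 minus 10 mM in effective plants, and 0 to 13 and 0 to 8 in ineffective plants. It gave 6 to 16 for ineffective minus effective over both cultivars, 1 to 3 in Agate and 9 to 13 in Saranac, 1 to 3 for the difference between cultivars, 0 to 1 for Saranac minus Agate in effective and 8 to 15 in ineffective plants, and kept 28 to 55 members. Leaving out 1 high library at a time gave 0 to 2, 2 to 4, 0 to 5 and 0 to 12 for the 4 nitrate contrasts in the same order, 1 to 4 in Agate, 5 to 7 between cultivars and 14 to 20 for cultivars in ineffective plants. Leaving out all 3 gave 30 and 34 for the first pair of contrasts, 2, 5, 0 and 0 for the nitrate contrasts, 6 in Agate and 7 between cultivars, with 52 members kept. DESeq2 gave 4, 6, 26 and 19 for the nitrate contrasts, 3 for nitrate in ineffective plants and 4 in Agate. It gave 9 between cultivars, 2 for cultivars in effective plants and 1 for the contrast added later. Shares of all genes by DESeq2 do not stand beside these counts, so they are not read as results about the 80. Without a filter the counts were 0 and 1 in effective plants, 0 for 6 minus 16 mM in ineffective plants and 9 for the class over both cultivars. The replicate block gave 0 and 1 in effective plants and 0 for 6 minus 16 mM in ineffective plants. Of same-numbered pairs 11 of 37 correlated above 0.1, with a median r of 0.020. Of the others 23 of 112 did, with a median r of -0.018. Whether the numbers pair the libraries cannot be decided from these values. Without ineffective Saranac at 6 mM and 420 ppm replicate 3, numbered out of order, both 6 minus 16 mM counts were 0. The cause of these moves was not tested. Groups of 3 or 4 libraries and the spread between them limit the nitrate contrasts.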

Other observations

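The library with 2 contradictory labels of fixation, Agate at 10 mM and 420 ppm replicate 4, had a total count of 19724147. The summed level of the 80 genes in it was 4014 CPM and their mean log2(CPM + 1) was 4.201. Its score on the other 12627 genes, on which 1 and -1 are the effective 600 and 420 ppm means, was 0.041. No class is assigned to it here.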
